A study of Mus musculus with 40 samples.

Results

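The cerebellum of aged wild-type mice fed with a vitamin E deficient diet was compared with that of aged wild-type mice fed with the normal diet. The compared arrays were the 8 of the 40 in the series that carry cerebellar RNA of wild-type mice at 29 months, 4 for each diet, and were taken by their titles. All mice were on the C57Bl/6 background. The normal diet held 36 mg of alpha-tocopherol per kg and the other diet was labelled vitamin E deficient, and both were given until use. When feeding began and how low vitamin E was in the tissue are not given in the sources used here. Each array carries total RNA of 1 mouse, per the study's methods. The arrays were 1-colour Agilent arrays. The log2 signal below is the scanner's processed signal on the log2 scale, less the 75th percentile of that array, so 0 stands for a signal equal to that percentile. Cortex of wild-type mice at 29 months on the same diets, and cerebellum of Ttpa-/- mice at 29 months on the deficient diet or on a supplemented diet of 600 mg of alpha-tocopherol per kg, are used where a difference between diet effects is given. Ttpa-/- mice lack the alpha-tocopherol transfer protein.

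Vitamin E is a fat-soluble antioxidant that ends the chain of lipid peroxidation in membranes. Alpha-tocopherol, its main form in the body, is kept in the circulation by the liver's alpha-tocopherol transfer protein, the product of Ttpa, and loss of vitamin E is known for ataxia, in which Purkinje cells and long myelinated axons suffer. The cerebellum is made mostly of small granule cells, with the large Purkinje cells, Bergmann glia, and a white matter of axons wrapped by oligodendrocytes. Myelin is rich in lipid, and its characteristic galactolipids are built by oligodendrocytes.

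In the deficient cerebellum, genes of oligodendrocytes and myelin were lower, with 13 of 39 down-regulated by 1.51-fold to 2.62-fold, against 1.23% of all genes. Pla2g4e, which codes for a cytosolic phospholipase A2, was up-regulated by 2.56-fold. Of the eicosanoid enzymes, Ptgs2 was up-regulated and Hpgd down-regulated, and the chaperone Hsph1 was down-regulated. Markers of Purkinje cells and of granule cells held no call. These results rest to a large degree on deficient replicates 1 and 2, as given beside each group.

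The 8 arrays lay on 1 slide, with the normal diet in row 1 and the deficient diet in row 2. Row and diet therefore cannot be told apart. The 75th percentile of the signal was 616 to 683 on the normal and 538 to 683 on the deficient diet. It was lowest on deficient replicates 1 and 2, at 573 and 538. The spike-in control RNAs fitted a line with r-squared 0.984 on deficient replicate 2 and 0.992 to 0.994 on the other arrays. What these differences add to the calls was not tested. On the normal and deficient diet, 56.7% to 60.6% and 58.0% to 60.7% of probes were well above background. Pairs of arrays of 1 diet correlated at r = 0.982 or higher across probes, and pairs of different diets at 0.975 to 0.995. On the first principal component, deficient replicates 1 and 2 stood at 49.1 and 55.4, deficient replicates 3 and 4 at 8.76 and -9.34, and the normal arrays between -52.3 and -4.14. The Purkinje cell genes Pcp2 and Calb1 and the granule cell genes Gabra6, Cbln1, Cbln3, Zic1 and Neurod1 were well above background on all 8 arrays, and the cortical genes Fezf2 and Emx1 on none. Tbr1, Neurod6 and Slc17a7, which are bright in cortex, were well above background on all 8 arrays too, at log2 signals of -4.07 to -2.93, -2.17 to -1.72 and 0.97 to 1.34. Slc17a7 is also in the granule cell list used below. Tbr1 and Neurod6 are in both the list of forebrain neurons and that of brainstem and deep nuclei neurons.

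In the deficient cerebellum 168 probes (0.542%) rose and 278 (0.897%) fell, of 30990 tested. A probe was called at an adjusted p under 0.05 in limma, with Benjamini-Hochberg adjustment, and a fold change over 1.5. The median log2 change of all tested probes was -0.01. Among the called probes, 51 rises and 73 falls were over 2-fold, and the arrays of the diets did not overlap for 316 of the 446, against 16.8% of all tested probes. Counted by gene, through the brightest probe of each of 15142 genes with a symbol, 0.33% were up-regulated and 1.23% down-regulated. Calls in the gene lists below stand against these shares.

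The calls rest on a spread estimated over all 40 arrays. In a limma fit of the 8 arrays alone, no probe passed (smallest adjusted p = 0.0744), while 1028 were higher and 582 lower at an unadjusted p under 0.05 with the same fold change. Without deficient replicate 1, 14 probes were up-regulated and 32 down-regulated, and without deficient replicate 2 the counts were 52 and 155. Without normal replicates 1, 3 and 4 in turn, they were 24 and 91, 68 and 123, and 93 and 210. Leaving out deficient replicate 3 gave 243 and 447, and leaving out deficient replicate 4 gave 431 and 455. With deficient replicates 1 and 2 both left out, 3 were up-regulated and 2 down-regulated. Of the 67 called genes that were followed by name, 7 kept the call without each of the 8 arrays in turn, and these were Pla2g4e, Hkdc1, Tomm20l, 4930474N09Rik, Dleu7, Cox6a2 and the probe of the immunoglobulin kappa chain.

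**Figure D1:**
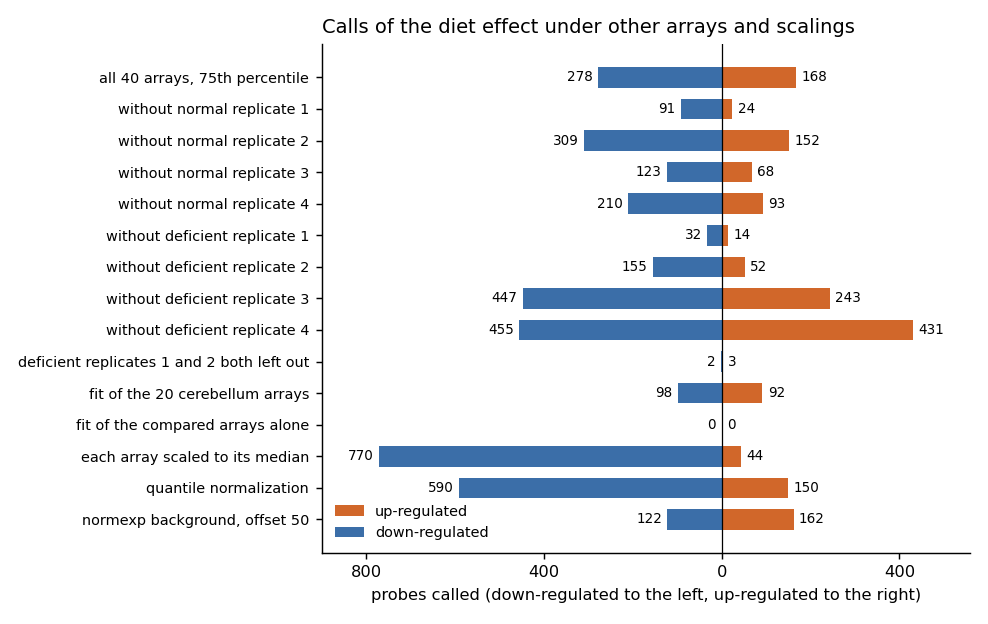
Number of probes called up-regulated (orange, right) and down-regulated (blue, left) in the deficient cerebellum, with all arrays, with arrays left out, in fits of fewer arrays, and under other scalings. The counts are lowest without deficient replicates 1 and 2 (3 and 2) and in the fit of the compared arrays alone (0 and 0).

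Among the genes that act on membrane lipids, a phospholipase rose and the eicosanoid enzymes went different ways. Of 53 tested genes of lipid peroxidation, phospholipases and eicosanoids, 2 were up-regulated, 1 was down-regulated and 32 were lower, with a median log2 change of -0.04, close to the -0.05 of all genes with a symbol.

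Pla2g4e codes for a group IV phospholipase A2, which acts on membrane phospholipids, and its probe lies on chromosome 2 (119992643 to 119992702, minus strand, mm9). Its log2 signal was -2.10, -1.68, -2.04 and -1.49 on the normal diet and 0.28, -0.30, -0.96 and -0.91 on the deficient diet. All 4 deficient arrays lay above all 4 normal arrays. The log2 change was 1.36 ± 0.25 (SE, n = 4 a diet; limma adjusted p = 0.00384), and the exact two-sided permutation p was 0.0286, the smallest that 4 against 4 allows. Leaving out each array in turn gave 1.11 to 1.52.

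Ptgs2 codes for the inducible cyclooxygenase, which turns arachidonic acid into prostaglandin H2. Its log2 signal was -3.48, -3.96, -4.01 and -3.79 on the normal diet and -0.91, -2.37, -3.42 and -3.75 on the deficient diet. Deficient replicates 1 and 2 were far above the normal arrays, replicate 3 was just above them and replicate 4 lay among them. The log2 change was 1.20 ± 0.35 (limma adjusted p = 0.0368). Without deficient replicate 1 it was 0.63 (adjusted p = 0.26), and leaving out any normal array or deficient replicate 2 also ended the call, at 1.12 to 1.31.

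Hpgd codes for 15-hydroxyprostaglandin dehydrogenase, the enzyme that inactivates prostaglandins. On the log2 scale it stood at -0.93, -1.06, -0.73 and -0.87 on the normal diet and -2.23, -1.70, -1.20 and -1.27 on the deficient diet, so the deficient arrays were all lower. The log2 change was -0.70 ± 0.16 (limma adjusted p = 0.0117), and another probe of the gene gave -0.63 (adjusted p = 0.0304). Without deficient replicate 1 the change was -0.49 (adjusted p = 0.103). Ptgs1, the constitutive cyclooxygenase and a marker of microglia, had signals of 0.18 to 0.30 on the normal diet and -0.34 to -0.01 on the deficient diet. The diets did not overlap for it, and the log2 change of -0.45 (adjusted p = 0.0235) was under the fold threshold. The same held for Aloxe3, an epidermal lipoxygenase, at 0.55 (adjusted p = 0.042).

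**Figure D2:**
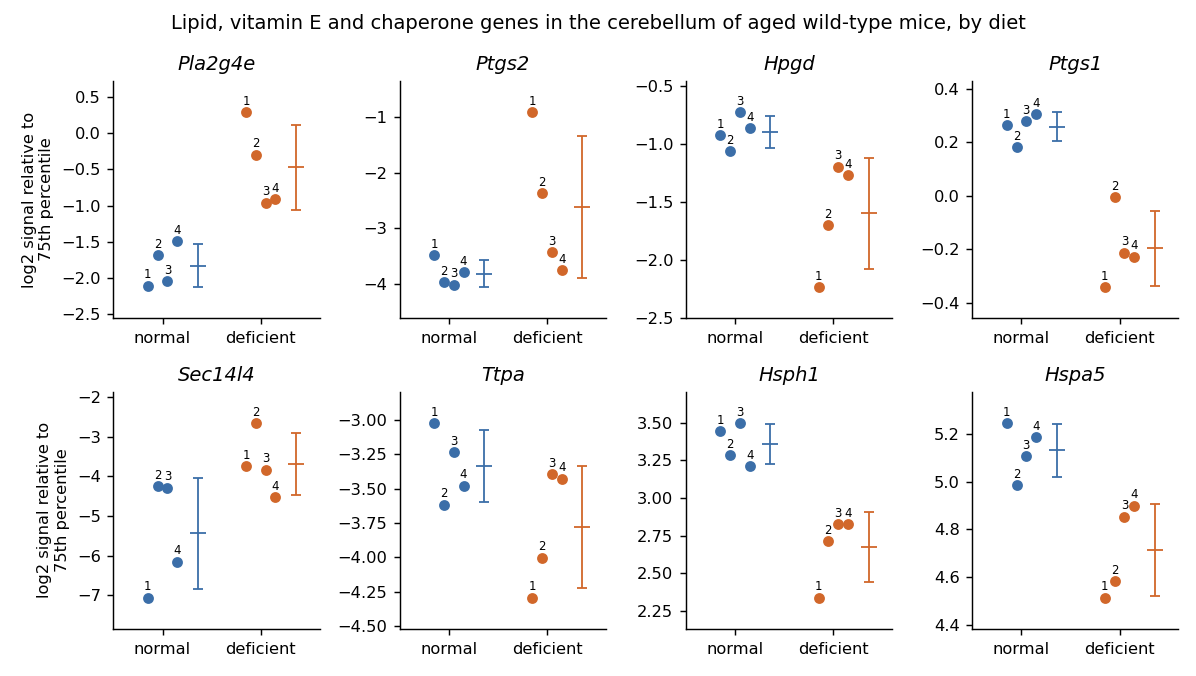
Log2 signal relative to each array's 75th percentile for 4 lipid genes, 2 vitamin E genes and 2 chaperones on the normal (blue) and deficient (orange) diet. Numbers are replicates, and bars show the mean ± SD of 4 arrays. Pla2g4e, Hpgd, Ptgs1, Hsph1 and Hspa5 separate the diets, whereas for Ptgs2, Sec14l4 and Ttpa the diets overlap.

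The genes that carry and break down vitamin E differed little by diet. Of 26 tested, 1 was up-regulated and none down-regulated, 18 were lower, and the median log2 change was -0.03. The gene called was Sec14l4, a member of the Sec14-like lipid-binding proteins. On the log2 scale it stood at -7.06, -4.25, -4.29 and -6.15 on the normal diet, where 2 of 4 arrays were well above background, and -3.75, -2.66, -3.84 and -4.53 on the deficient diet, where all were. Deficient replicate 4 lay below normal replicates 2 and 3. The log2 change of 1.74 ± 0.50 (limma adjusted p = 0.0358) lost its call without normal replicate 1 (1.20) or 4 (1.50) or deficient replicate 1 (1.76) or 2 (1.40).

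Ttpa itself was faint in the cerebellum. On the log2 scale it stood at -3.02, -3.62, -3.23 and -3.48 on the normal diet and -4.29, -4.00, -3.40 and -3.43 on the deficient diet, well above background on all 8 arrays. The diets overlapped, and the log2 change was -0.44 ± 0.34 (adjusted p = 0.466). Its probe lies on chromosome 4 (19957856 to 19957915, plus strand, mm9). Sec14l2, which codes for a tocopherol-binding protein of the same family, changed by -0.24 (adjusted p = 0.14), and Cyp4f14, which codes for the mouse's tocopherol omega-hydroxylase, by -0.02. Scarb1 and Apoe, which code for a lipoprotein receptor and a lipid carrier, gave -0.07 and -0.12, and the cholesterol and tocopherol exporter gene Abca1 gave 0.17, none called.

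Genes of oligodendrocytes and myelin formed the group with the most calls. Of 39 tested, none was up-regulated and 13 were down-regulated, 36 were lower, and the median log2 change was -0.50. In brain tissue, fewer oligodendrocytes, less RNA for each and less white matter in the sample taken cannot be told apart. The down-regulated genes included those for the building of myelin galactolipids (Ugt8a and Gal3st1), for membrane proteins of myelin (Opalin, Pllp and Mag), for lineage factors (Sox10 and Olig1) and for markers of cells on the way to maturity (Gpr17 and Bcas1).

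Ugt8a, which codes for ceramide galactosyltransferase, had a log2 signal of 0.93, 0.75, 0.99 and 0.68 on the normal diet and -1.52, -0.84, -0.17 and 0.65 on the deficient diet. Its log2 change was -1.31 ± 0.31 (limma adjusted p = 0.0133). Deficient replicates 1 to 3 were well below the normal arrays, whereas replicate 4 was level with the lowest of them.

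Opalin, a transmembrane protein of the myelin sheath, had the largest fall of the group. Its log2 signal was -0.84, -1.44, -0.85 and -1.53 on the normal diet and -3.52, -3.19, -2.31 and -1.20 on the deficient diet, a log2 change of -1.39 ± 0.39 (adjusted p = 0.0308). Here deficient replicate 4 lay among the normal arrays. Mag, myelin-associated glycoprotein, had signals of 3.73, 3.74, 3.92 and 3.82 on the normal diet and 2.65, 2.66, 3.00 and 3.62 on the deficient diet.

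The log2 change of Mag was -0.82 ± 0.22 (adjusted p = 0.0263), with every deficient array below every normal array. Pllp, plasmolipin, fell by 1.03 (adjusted p = 0.0196), with deficient replicate 4 among the normal arrays. Sox10, the transcription factor that oligodendrocytes need throughout their life, fell by 0.69 (adjusted p = 0.0114), Qdpr, dihydropteridine reductase, by 0.72 (adjusted p = 0.00632), and Car2, carbonic anhydrase 2, by 0.68 (adjusted p = 0.0144).

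Other genes of myelin were not called. Mog, a protein of the outer myelin surface, gave a log2 change of -0.55 (adjusted p = 0.0473), under the fold threshold. Mbp, myelin basic protein, gave -0.41 (adjusted p = 0.218). The progenitor markers Pdgfra and Cspg4 gave -0.11 and -0.16.

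The arrays differed among themselves in this group. Against the mean of the normal diet, the median log2 difference of the 39 genes was -0.83 in deficient replicate 1, -0.73 in replicate 2, -0.36 in replicate 3 and -0.14 in replicate 4, and between -0.10 and 0.11 on the normal arrays. The summed level of the list was 646 to 749 times the 75th percentile on the normal diet and 510 to 664 times on the deficient diet. No gene of the list was called without deficient replicate 1, 4 were without deficient replicate 2, 6 without normal replicate 1 and 5 without normal replicate 3. Without deficient replicates 1 and 2 the median was -0.23, with 34 of 39 genes lower and none called.

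**Figure D3:**
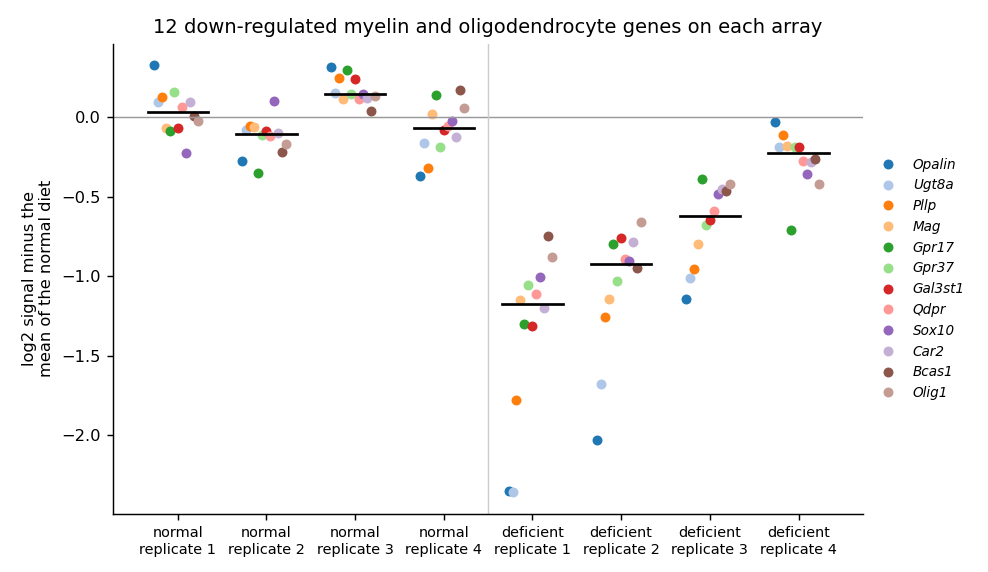
Log2 signal minus the mean of the normal diet for 12 of the 13 down-regulated genes of myelin and oligodendrocytes on each of the 8 arrays. Points are genes and black bars are the median of the genes on an array. The falls are deepest in deficient replicates 1 and 2, and in deficient replicate 4 Opalin differs by -0.03 and Ugt8a by -0.19.

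The list of heat shock chaperones also held chaperones of the endoplasmic reticulum and the transcription factor Hsf1. All its genes are called chaperones here. Of 41 tested in the wild-type cerebellum, 2 (4.88%) were down-regulated on the deficient diet and none up-regulated. Over all genes with a symbol, 1.23% were down-regulated. Of the 41, 33 were lower and 8 higher, and the median log2 change was -0.19. Without deficient replicates 1 and 2 the median was -0.09, with 31 lower and none called. For 19 of the 41 the diets did not overlap, against 16.8% of all tested probes. Hsph1, which codes for the nucleotide exchange factor Hsp110, had a log2 signal of 3.44, 3.29, 3.50 and 3.21 on the normal diet and 2.34, 2.71, 2.83 and 2.83 on the deficient diet. All deficient arrays were lower, with a log2 change of -0.68 ± 0.11 (limma adjusted p = 0.00223), and another probe gave -0.70 (adjusted p = 0.00384). Without deficient replicate 1 the change was -0.57 (adjusted p = 0.0258), under the fold threshold.

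Sdf2l1, a chaperone cofactor of the endoplasmic reticulum, fell by 0.62 (adjusted p = 0.0152), and without normal replicate 1 or deficient replicate 1 it gave -0.52 or -0.54, no longer called. Hspa5, the main chaperone of the endoplasmic reticulum, had signals of 5.24, 4.99, 5.11 and 5.18 on the normal diet and 4.52, 4.58, 4.85 and 4.90 on the deficient diet. The diets did not overlap, and the log2 change of -0.42 (adjusted p = 0.0176) was under the fold threshold. The small heat shock protein gene Cryab (-0.53, adjusted p = 0.00492), Manf (-0.49, adjusted p = 0.018) and Calr (-0.41, adjusted p = 0.0184), both of the endoplasmic reticulum, were of the same kind.

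In the cerebellum of Ttpa-/- mice, 35 of the same 41 genes were higher on the deficient than on the supplemented diet, 6 were up-regulated, and the median log2 change was 0.24. Over all probes, 0.382% were called in that comparison, in either direction. The difference between the diet effects of wild-type and Ttpa-/- cerebellum was called for 16 of the 41 genes, all lower in wild type, against 2.87% of probes; this contrast was chosen after the values were seen. Among the 16 were the endoplasmic reticulum genes Hspa5, Sdf2l1, Manf, Pdia4, Pdia6, Calr, Creld2, Hsp90b1 and Serpinh1, and Hsf1. The others were Hsph1, Dnaja1, Cryab, Hspa1a, Chordc1 and Hspa12a. Hsp90aa1, Hsp90ab1, Hspa8, Hspd1, Hspe1 and Dnajb1 were not called. The difference was -1.26 ± 0.16 for Hsph1, -1.14 ± 0.15 for Hspa5 and -1.61 ± 0.21 for Sdf2l1, each with a limma adjusted p of 6.96e-05. Hspa5 stood at a mean log2 signal of 5.13 on the normal and 4.71 on the deficient diet in wild type, and at 4.74 on the supplemented and 5.46 on the deficient diet in Ttpa-/- mice. Leaving out each wild-type array in turn left 15 to 17 of the 41 called, and leaving out deficient replicates 1 and 2 left 9. No Ttpa-/- array was left out, so how far the calls rest on single Ttpa-/- arrays was not tested. The median SD of a probe was 0.207 and 0.171 on the deficient and supplemented diet in Ttpa-/- cerebellum. In wild type it was 0.161 on the deficient and 0.137 on the normal diet. The 2 comparisons lie on different slides and their reference diets differ, so genotype, slide and reference diet cannot be told apart; in both, the deficient diet held row 2.

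The promoters of Hsph1 and of the co-chaperone gene Dnaja1 are shown as examples that were called in that difference and hold a heat shock element, the site of heat shock factors. They are the 250 bases before the start site in RefSeq, build GRCm38.p6, at chr5:149636337-149636586 on the minus strand and chr4:40722218-40722467 on the plus strand. Capitals mark TTCNNGAA or GAANNTTC, searched on both strands.
Hsph1: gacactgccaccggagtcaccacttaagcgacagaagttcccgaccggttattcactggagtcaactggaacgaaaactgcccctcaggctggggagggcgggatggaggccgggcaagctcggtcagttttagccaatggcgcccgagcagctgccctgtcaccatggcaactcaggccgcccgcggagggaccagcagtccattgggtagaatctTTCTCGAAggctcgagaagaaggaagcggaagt
Dnaja1: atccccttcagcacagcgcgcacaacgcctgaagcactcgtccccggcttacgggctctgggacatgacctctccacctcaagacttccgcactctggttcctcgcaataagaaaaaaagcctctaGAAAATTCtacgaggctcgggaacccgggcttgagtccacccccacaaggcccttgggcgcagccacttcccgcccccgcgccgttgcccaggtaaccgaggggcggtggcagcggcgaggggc
A promoter was found for 31 of the 41 chaperone genes, and 11 (35.5%) held either motif in these 250 bases, against 3932 of 27025 genes (14.5%). Of the 16 called in the difference, 13 had a promoter and 3 of these held the motif, against 8 of 18 among the others. The promoters of Hspa5 and Sdf2l1 held none. Dnaja1 changed by -0.31 (adjusted p = 0.0234) in wild type and by 0.43 (adjusted p = 0.00587) in Ttpa-/- mice, under the fold threshold in both.

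Other genes of the defence against oxidation differed by small amounts. Of 39 tested glutathione and thioredoxin enzymes, 2 (5.13%) were down-regulated, against 1.23% of all genes with a symbol. Of the 39, 31 were lower, with a median log2 change of -0.11. Gstm7 and Gstm6, which code for glutathione S-transferases, fell by 0.67 (adjusted p = 0.0156) and 0.59 (adjusted p = 0.0276). Another probe of Gstm7 gave -0.50 (adjusted p = 0.0196), under the fold threshold. Other probes of Gstm6 gave -0.87 (adjusted p = 0.0191), which was called, and -0.53 (adjusted p = 0.0906), which was not. The Gstm genes are close copies of each other, so their probes may share signal. Gstm7 stood between -0.65 and -0.49 on the normal diet and between -1.69 and -0.79 on the deficient diet, without overlap. It lost its call without deficient replicate 1 (-0.53) or 2 (-0.58), and Gstm6 lost it without any array but normal replicate 2 or deficient replicate 3 (-0.62 to -0.53).

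Prdx3 and Msrb2, a peroxidase and a methionine sulfoxide reductase of mitochondria, gave -0.30 (adjusted p = 0.00893) and -0.44 (adjusted p = 0.00481), and Gpx1, the main cytosolic glutathione peroxidase, -0.29 (adjusted p = 0.0321). Gsta3, another glutathione S-transferase, was higher by 0.58 (adjusted p = 0.00804). All 4 were under the fold threshold. None of 38 genes of superoxide dismutases, catalase, Nrf2 targets and metallothioneins was called, with a median of -0.07. Of 27 tested genes of iron handling none was called, with Tfrc, the transferrin receptor, at 0.50 (adjusted p = 0.0334).

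Of 88 tested subunits of the mitochondrial respiratory chain, 85 were lower and 1 was down-regulated, with a median log2 change of -0.12. Of all 30990 tested probes, 16092 were lower, and the brightest 7748 had a median of -0.06. Against the normal mean, the list's median by array was -0.09 to 0.13 on the normal and -0.20 to -0.06 on the deficient diet. The diets overlapped by this measure, and genes on 1 array are not independent. The gene called, Cox6a2, codes for a subunit of cytochrome c oxidase typical of heart and skeletal muscle. Its log2 signal was 1.29, 1.20, 1.21 and 0.90 on the normal diet and -0.79, 0.24, 0.19 and 0.67 on the deficient diet. All deficient arrays were below the normal arrays, with a change of -1.07 ± 0.21 (adjusted p = 0.0041). In cortex 42 of the 88 were lower, with a median of 0.01. Without deficient replicates 1 and 2, 80 of the 88 were lower in the cerebellum, with a median of -0.09. Cholesterol synthesis and uptake held no call among 29 genes, of which 27 were lower (median -0.15).

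Of the genes of resting microglia, the immune cells of the brain, 2 of 32 tested (6.25%) were down-regulated. Over all genes with a symbol, 1.23% were. Of the 32, 26 were lower, with a median log2 change of -0.25. The summed level of the list, which its brightest genes set, was 323 to 367 times the 75th percentile on the normal diet and 331 to 395 times on the deficient diet. Slc2a5, the fructose transporter that marks microglia, had a log2 signal of -1.76, -2.09, -1.86 and -1.87 on the normal diet and -4.08, -3.25, -2.63 and -2.22 on the deficient diet. Every deficient array was lower, with a change of -1.15 ± 0.27 (adjusted p = 0.0144). Without normal replicate 1 it was -1.10, without deficient replicate 1 -0.80 and without deficient replicate 2 -1.08, each no longer called.

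Fcrls, an Fc receptor-like gene of resting microglia, fell by 0.97 (adjusted p = 0.0135), and by 0.78 without deficient replicate 1 (adjusted p = 0.109). Csf1r, the receptor on which microglia depend, gave -0.34 (adjusted p = 0.0475), Selplg -0.47 (adjusted p = 0.0483) and the purinergic receptor P2ry12 -0.54 (adjusted p = 0.0545). None of 41 genes of activated microglia and phagocytosis, 21 of complement, 27 of antigen presentation or 52 induced by interferon was called. At an unadjusted p under 0.05 with the fold threshold, 2, 1, 1 and 4 of them differed.

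Of 31 genes of astrocytes and Bergmann glia, 1 was down-regulated. Fabp7, a fatty acid binding protein of radial and Bergmann glia, stood at 2.88, 2.50, 2.57 and 1.31 on the normal diet and 0.25, 0.68, 1.17 and 1.90 on the deficient diet, a log2 change of -1.31 ± 0.36 (adjusted p = 0.03). Normal replicate 4 and deficient replicate 4 overlapped the other diet. The call was lost without normal replicate 1, 2 or 3 or deficient replicate 1 or 2 (-1.25 to -1.06). None of 27 reactive astrocyte genes was called by limma, and 4 were higher and none lower at an unadjusted p under 0.05 with the fold threshold. Of the 27, 20 were higher, with a median of 0.13. The median by array was 0.54 on deficient replicate 1 and -0.05 to 0.07 on the other deficient arrays. With each array scaled to its median, 13 of 27 were higher, with a median of -0.04. Gfap, their classical marker, gave -0.17 (adjusted p = 0.615). Other probes of it gave -0.45 (adjusted p = 0.171), with non-overlapping diets, and -0.20 (adjusted p = 0.578), neither called.

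The neurons proper to the cerebellum held no call. Of 43 Purkinje cell genes none was called, with a median log2 change of -0.08, and of 38 granule cell genes none, with a median of 0.05, also at an unadjusted p under 0.05 with the fold threshold. Their summed levels were 1655 to 1881 and 750 to 842 times the 75th percentile on the normal diet and 1620 to 1783 and 793 to 890 times on the deficient diet. Bcl11a, a transcription factor (-0.49, adjusted p = 0.0114), and Grin2c, the NMDA receptor subunit of granule cells (0.43, adjusted p = 0.0112), were under the fold threshold. Of 40 receptors for glutamate and GABA, the metabotropic glutamate receptors Grm3 and Grm7 fell by 0.61 and 0.59 (adjusted p = 0.0343 and 0.0221). Both lost the call without any array but normal replicate 2 or deficient replicate 3 or 4.

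Of 29 neuropeptide precursors, 3 (10.3%) were down-regulated, against 1.23% of all genes with a symbol. Of the 29, 22 were lower and 7 higher, with a median of -0.29. Crh, corticotropin-releasing hormone, which climbing fibres from the inferior olive carry, had a log2 signal of -1.49, -4.00, -3.72 and -3.81 on the normal diet and -4.77, -4.96, -4.81 and -5.66 on the deficient diet, with 1 of 4 deficient arrays well above background. All deficient arrays were lower, by a log2 change of -1.80 ± 0.40 (adjusted p = 0.0102). Without normal replicate 1 it was -1.21 (adjusted p = 0.0615). Pomc, the precursor of melanocortins and beta-endorphin, fell by 0.82 (adjusted p = 0.0373) and gave -0.37 without normal replicate 3, which stood at 0.89 against -1.09 to -0.64 on the other normal arrays. Leaving out deficient replicate 1 or 2 also ended that call. Pnoc, the precursor of nociceptin, fell by 0.64 (adjusted p = 0.0494), with overlapping diets, and lost the call without any array but normal replicate 2 (-0.75 to -0.53). Cck, cholecystokinin, gave -0.55 (adjusted p = 0.00259), under the fold threshold.

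**Figure D4:**
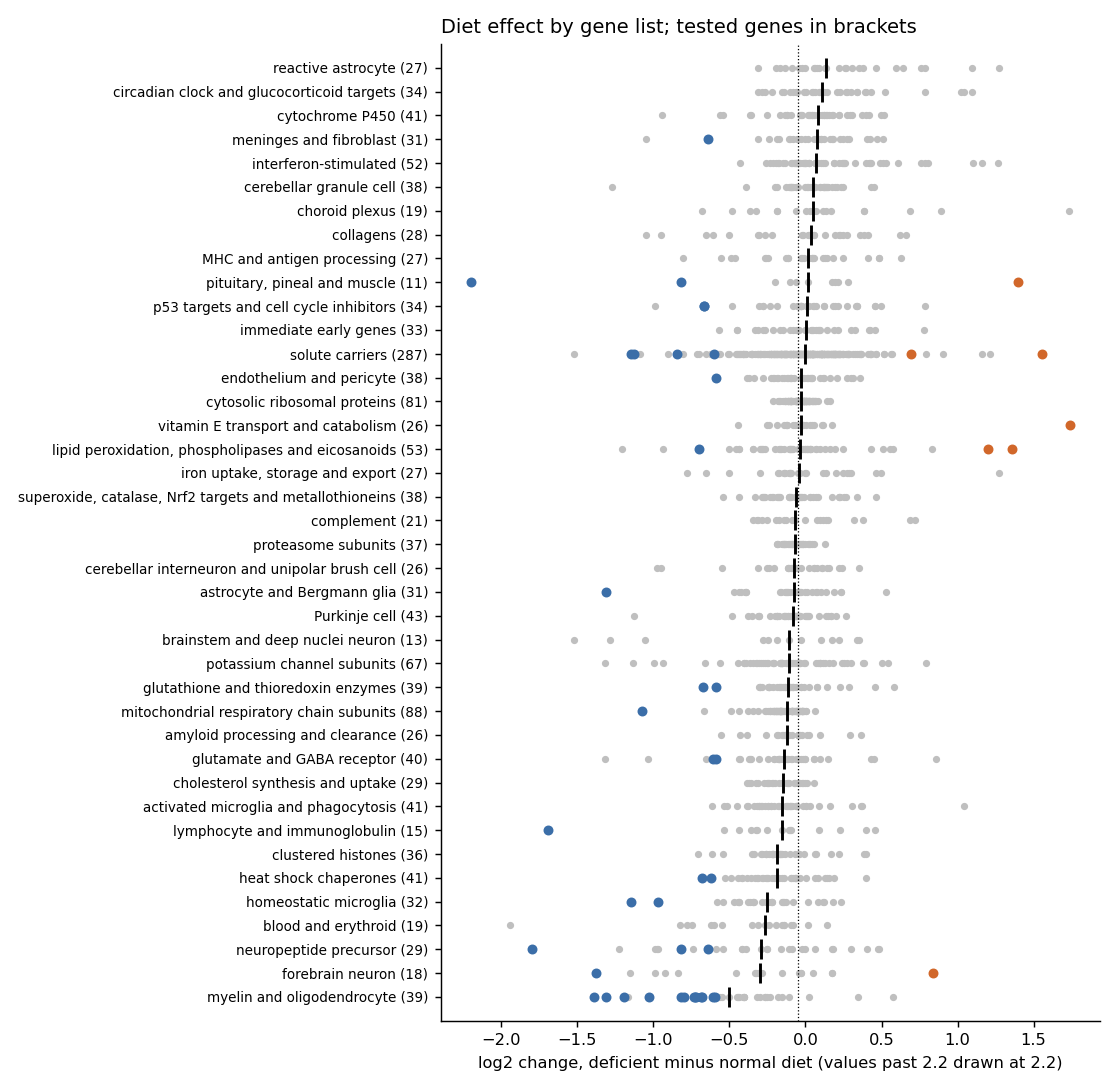
Log2 change, deficient minus normal diet, of each tested gene by gene list. Orange and blue points are up-regulated and down-regulated genes, grey points are not called, black ticks are list medians and the dotted line is the median of all genes with a symbol (-0.05). The list of myelin and oligodendrocyte genes has the lowest median (-0.50) and 13 calls.

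Some of the largest falls were in genes that are bright on a few arrays. Prl, prolactin, stood at -4.20, -0.76, -0.84 and -4.00 on the normal diet and was not well above background on any deficient array, where its values were -6.08 to -7.01. It was at least 5.61-fold lower (adjusted p = 0.0399). The call was lost without any array but normal replicate 4 (-4.78 to -3.63, from deficient signals not well above background). Of the list of pituitary, pineal and muscle genes, 11 of 23 were tested, and the pituitary genes Gh, Cga, Tshb and Fshb were not well above background on all arrays of either diet. Prl and Pomc were the pituitary genes called. The list also holds Pvalb, which is in the Purkinje cell list too. The summed level of the list, which its brightest genes set, was 163 to 196 times the 75th percentile on the normal diet. On the deficient diet it was 159 to 168 times. Prl, at log2 signals of -0.76 or lower, adds little to this sum, which does not measure pituitary tissue. What pituitary tissue contributes to these results was not tested.

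A probe for the constant region of the immunoglobulin kappa chain, named after its values were seen, stood at 2.51, 0.10, 0.63 and -1.68 on the normal diet and -6.99, -0.84, -3.90 and -3.96 on the deficient diet. Its log2 change was -4.31 ± 0.80 (adjusted p = 0.00363), with deficient replicate 2 among the normal arrays, and it ran from -5.34 to -3.29 without each array in turn. Igj, the joining chain of secreted antibodies, fell by 1.69 (adjusted p = 0.0433), with overlapping diets, and gave -0.99 without normal replicate 1. The call was kept only without normal replicate 4 or deficient replicate 2. Igj was the gene called among 15 of lymphocytes and immunoglobulins, whose summed level was 8.91 to 11.3 times the 75th percentile on the normal diet and 8.41 to 8.98 times on the deficient diet.

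Several down-regulated genes are expressed by neurons outside the cerebellar cortex or in few cells. Cpne4, a calcium-dependent membrane-binding copine, stood at -0.02, -0.57, 0.23 and -0.29 on the normal diet and -2.43, -1.31, -0.73 and -2.33 on the deficient diet. The diets did not overlap, with a log2 change of -1.54 ± 0.39 (adjusted p = 0.0193), and 2 other probes gave -1.78 and -1.75 (adjusted p = 0.0176 and 0.0159). The call was lost without normal replicate 1 (-1.49) or 3 (-1.41) or deficient replicate 1 (-1.30). Dleu7 fell by 1.62 (adjusted p = 0.00259) and Glra2, a glycine receptor subunit, by 1.22 (adjusted p = 0.0205). Glra2 lost its call without normal replicate 1, 3 or 4 or deficient replicate 1 or 4 (-1.18 to -0.91). Foxb1 and Pax7, transcription factors of the developing brain that were named after their values were seen, fell by 2.59 and 2.15 (adjusted p = 0.0165 and 0.0304), each well above background on 1 of 4 deficient arrays. Deficient replicate 3 lay among the normal arrays for both. Without deficient replicate 1 they gave -2.27 and -1.91, no longer called. Foxb1 also lost its call without normal replicate 1 or 3, and Pax7 kept it only without normal replicate 2 or deficient replicate 3.

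Of 13 tested genes of brainstem and deep nuclei neurons none was called, with a median of -0.11. Their summed level was 33.9 to 41.7 times the 75th percentile on the normal diet and 27.8 to 32.9 times on the deficient diet, without overlap. Of 18 forebrain neuron genes, 1 was up-regulated (Nov, a matricellular protein, by 0.84) and 1 was down-regulated (6330527O06Rik, now Lamp5, at least 1.85-fold lower), both lost without several arrays, deficient replicate 1 among them, with summed levels of 68.2 to 85.5 times and 66.4 to 82.1 times. What these neurons contribute to the falls of Cpne4, Glra2, Foxb1 and Pax7 was not tested.

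The largest rises among genes with non-overlapping diets were mostly in faint genes. Slc17a9, the vesicular nucleotide transporter, stood at -4.27, -3.82, -4.33 and -5.29 on the normal diet and -1.40, -2.67, -3.65 and -3.77 on the deficient diet. Its log2 change was 1.56 ± 0.42 (adjusted p = 0.0266), and 1.06 without deficient replicate 1 (adjusted p = 0.196). Leaving out normal replicate 1, 3 or 4 or deficient replicate 2 also ended its call. Itih4, a plasma protein related to the inter-alpha-trypsin inhibitors, rose by 1.50 (adjusted p = 0.0232) and Myl1, a light chain of fast muscle myosin, by 1.40 (adjusted p = 0.0108), and they gave 1.14 and 1.13 without deficient replicate 1, no longer called. Itih4 was also lost without normal replicate 1 or 2 or deficient replicate 2. Scn3b, a beta subunit of voltage-gated sodium channels, rose by 1.13 (adjusted p = 0.0212), and was lost without normal replicate 1 or 4 or deficient replicate 1 or 2 (0.88 to 1.09).

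Hkdc1, a hexokinase domain protein, was tighter. On the log2 scale it stood at -1.15, -0.94, -1.18 and -0.81 on the normal diet and 0.26, 0.08, -0.09 and -0.18 on the deficient diet. Every deficient array was above every normal array, with a change of 1.04 ± 0.18 (adjusted p = 0.00289) and 0.96 to 1.1 without each array in turn.

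Of 34 genes of the clock and of glucocorticoid targets none was called by limma, 23 were higher, with a median of 0.11, and 3 were higher at an unadjusted p under 0.05 with the fold threshold. With each array scaled to its median, 15 were higher, with a median of -0.07. Fkbp5, a co-chaperone of that receptor, stood at 0.68, 1.02, 0.67 and 1.54 on the normal diet and 3.45, 2.50, 1.65 and 0.70 on the deficient diet, and Sult1a1, a sulfotransferase, at 0.98, 1.15, 0.91 and 2.28 and at 3.1, 2.84, 2.37 and 1.19. Deficient replicates 1 to 3 lay above every normal array for both genes, with replicates 1 and 2, where the myelin genes were lowest, the highest. Deficient replicate 4 lay within the normal range. Their log2 changes of 1.09 and 1.04 were not called (adjusted p = 0.0946 and 0.0835), and their part in the other results was not tested.

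Up-regulated and down-regulated probes differed in kind. Of 19143 probes for RefSeq coding transcripts, 64 were up-regulated and 228 down-regulated, with a median log2 change of -0.05. Of 5666 probes for intergenic long noncoding RNAs, 47 were up-regulated and 16 down-regulated, the median was 0.13 and 66.6% were higher on the deficient diet. Noncoding probes are fainter, and over all tested probes the median change was 0.15 among the faintest 7748 and -0.06 among the brightest 7748, so kind and brightness were not separated here. Scaling each array to its median, which moves the median change of all probes to -0.19, left 44 up-regulated and 770 down-regulated probes.

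**Figure D5:**
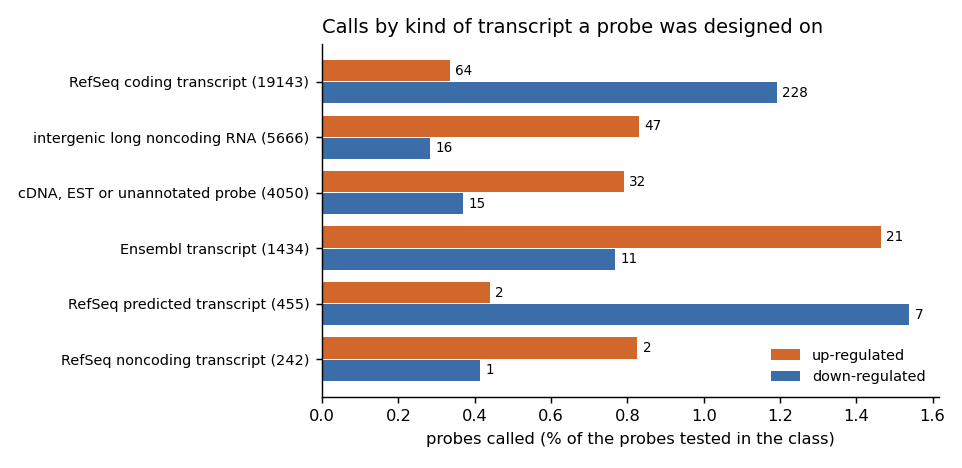
Share of tested probes called up-regulated (orange) or down-regulated (blue) by the kind of transcript a probe was designed on, with the number tested in brackets and the number called beside each bar. Coding transcripts have more falls than rises (228 and 64), and intergenic long noncoding RNAs have more rises than falls (47 and 16).

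Whether the diet acts alike in cortex was asked next. In cortex 0.382% of 28254 probes were called in either direction, 54 up and 54 down, and the groups lay on different slides, so slide and diet cannot be told apart there. Of all 28254, 14505 were higher and 13749 lower. The labels do not say whether cortex and cerebellum arrays come from the same mice, so agreement between the regions may not be independent. Of the 136 up-regulated cerebellar probes tested in cortex, 104 were higher there, with a median log2 change of 0.35, and 14 were up-regulated. Of 263 down-regulated probes, 223 were lower, with a median of -0.26, and 4 were down-regulated. The oligodendrocyte list was lower in cortex for 36 of 39 genes, with a median of -0.30 and none called. The difference between the regions was called for 20 of 31763 probes (0.063%), of which 5 were among the 446. Vipr1, a receptor for vasoactive intestinal peptide, differed by 1.17 (adjusted p = 0.0154), Slc4a4, a sodium bicarbonate cotransporter, by 1.28 and Sept9, a septin, by -0.89 (both adjusted p = 0.0404). Without deficient replicate 1 none was called. For the other genes a difference between regions was not shown, nor was its absence.

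In the cerebellum of Ttpa-/- mice, the deficient diet was compared with the supplemented one, with 45 probes up-regulated and 72 down-regulated. Of all 30643 tested there, 14681 were higher and 15962 lower. As for the chaperones, genotype, slide and reference diet cannot be told apart. Of the 157 probes up-regulated in wild type and tested there, 34 were higher, none was up-regulated and 6 were down-regulated. Of 250 down-regulated probes, 113 were lower, 2 were down-regulated and 9 up-regulated. The difference between the diet effects was called for 2.87% of all probes and for 202 of the 446. The 446 were picked by the wild-type diet effect, which is part of that difference. Pla2g4e gave -1.37 (adjusted p = 0.00346) in Ttpa-/- against 1.36 in wild type, a difference of 2.73 (adjusted p = 6.96e-05). The oligodendrocyte list had a median of -0.11 there, with 1 gene up-regulated, Gpr17 (0.91, adjusted p = 0.0413), against -0.80 in wild type, and the difference of -1.71 was called (adjusted p = 0.00189).

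The genes that the study follows were not called in this comparison. Pla2g3, a secreted phospholipase A2, stood at -2.11, -1.85, -1.72 and -1.30 on the normal diet and 0.24, -0.46, -1.11 and -2.33 on the deficient diet. Deficient replicates 1 to 3 were above the normal arrays and replicate 4 below them, and the log2 change was 0.83 ± 0.40 (adjusted p = 0.216). Ide, the insulin-degrading enzyme, stood at 1.88, 1.97, 0.97 and 0.96 on the normal diet and 1.0, 0.69, 0.89 and 0.97 on the deficient diet, a change of -0.56 ± 0.21 (adjusted p = 0.107). The others among the 10 tested, such as Gm3448 (0.64), Car8 (-0.30), App (-0.13) and Gapdh (-0.02), were not called either.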

How the data were processed

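Total RNA was labelled with Cy3 and hybridised to 1-colour Agilent arrays, 1 mouse an array. The deposited scanner tables hold processed intensities after background subtraction (Feature Extraction 10.7.3.1 in the file headers, 10.1.1.1 in the submitters' processing notes). The authors' own table holds log2 values scaled to the 75th percentile and centred per probe, and was used as an alternative. Of 61 columns in a scanner table, 45 were not used.

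Control spots were left out, spots of a probe averaged, and log2 signals scaled to each array's 75th percentile. limma 3.58.1 in R 4.3.3 was fitted to all 40 arrays, 4 in each of 10 groups, with a mean per group. Adjusted p-values are from limma with Benjamini-Hochberg adjustment over all probes tested, where a probe was tested if the scanner put it well above background on each of the 4 arrays of 1 or both diets. The fit was tested on simulated data with independent noise for each probe and array. Shifts shared by many probes of an array were therefore not part of that test. Gene names came from the arrays' identifiers (20591 of 21916 found in RefSeq's names). A gene in a list is its brightest probe. Named genes were the 15 largest rises and 15 largest falls with non-overlapping diets, up to 4 called genes of each list, filled up to 2 by smallest p, and the genes the study names. Other list members and a few probes were named after their values were seen. The members, lists and tests were chosen with earlier results of these data known. The number of arrays limits the precision. Results for a few genes are not reported here.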

Additional observations from a re-analysis of the deposited data

Results flagged for a closer look

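Among 196 groups of 4 arrays looked at for the named genes, 9 held 1 array far from the other 3, and chance gives about 1 in 20 groups. On the log2 scale these were Aloxe3 in deficient replicate 1 (1.343, others 0.923 to 0.953), Ccnd2 in deficient replicate 1 (-2.382, others -1.257 to -1.143) and Depdc7 in deficient replicate 1 (-6.494, others -4.786 to -4.441). On the normal diet they were Prdx3 (2.601), Cck (5.401) and Crh (-1.488) in replicate 1, Tfrc (0.751) and Gal3st1 (-0.403) in replicate 3, and Slc26a10 (-4.338) in replicate 4. Without normal replicate 1, Crh was no longer called.

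The diet effect differed between cerebellum and cortex for 5 of the probes called in the cerebellum, by limma's test of the difference. The difference, cerebellum minus cortex, was 1.172 for Vipr1 (0.86 against -0.32), 1.278 for Slc4a4 (0.59 against -0.69), and 1.521 and 1.763 for intergenic long noncoding RNAs on chromosomes 16 and 10. The signs were opposite in the regions. For Sept9 the difference was -0.887 (-0.68 against 0.21).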

How the results depend on the processing

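With all 40 arrays, 168 probes were up-regulated and 278 down-regulated, 13 myelin genes were called, 30 of the largest changes were named, 20 probes differed between cerebellum and cortex, and 16 chaperones differed between wild-type and Ttpa-/- mice. Of 67 called genes none changed sign under any alternative; Gapdh, not called (-0.02), ran from -0.043 to 0.009 without each array in turn (0 without normal replicate 4, 0.009 without deficient replicate 4). The cause of the shifts below was not tested. Scaled to the median, 44 rose, 770 fell and 0 differed between regions. Quantile normalization gave 590 falls, and normexp 122 falls and 19 named genes. With no filter on dim probes 19 named genes and 1 regional difference were called, and with probes above background on all compared arrays 18 named genes. In the fit of the compared arrays alone, rises, falls, named genes and myelin genes were 0, and 73 probes differed between regions. In the fit of the 20 cerebellum arrays they were 92, 98, 10 and 6. Array weights gave 360, 450 and 1170 (regions). The labels do not say whether replicate numbers pair the arrays. Between same numbers r was -0.08 to 0.29, and replicates 2 and 4 but not 1 and 3 matched their own number best, which does not settle it. With the replicate as a block in the compared arrays alone, 0 rose, 0 fell, and 0 named and 0 myelin genes were called. In that setting 3 probes differed between regions and 8 chaperones between genotypes. At an unadjusted p the counts were 741, 573 and 1905 (regions), at an adjusted p with no fold threshold 493 and 1331, and by fold alone 1517, 707 and 4220. The methods' t-test gave 757, 470 and 1999 unadjusted, and 0, 0 and 60 after Benjamini-Hochberg, with 0 named and 0 myelin genes. With 1 value a gene, 10 differed between regions. Without deficient replicates 1 and 2, an alternative chosen after seeing the data, 3 rose, 2 fell, 0 named and 0 myelin genes were called, 0 probes differed between regions and 9 chaperones between genotypes. Leaving out each of the 8 compared arrays in turn gave 14 to 431 rises, 32 to 455 falls and 7 to 28 named genes. It also gave 0 to 17 myelin genes, 0 to 23 regional differences and 15 to 17 chaperones. No cortex or Ttpa-/- array was left out. Where no array of a diet was well above background, the main change is given as a bound. Where some arrays of a diet were, the full log2 change is given. Changes without each array in turn are full values throughout.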
